A study of Mus musculus with 5 samples.

Results

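The thrombospondins and the other secreted or surface-bound glial proteins that act on synapses were examined in the mouse dentate gyrus (DG) as 8 genes, Thbs1, Thbs2, Thbs3, Thbs4, Sparc, Sparcl1, Gpc4 and Gpc6, out of 23420 gene symbols in the deposited tables. All 8 belonged to the 13550 genes with a mean value of at least 5, called expressed genes here, and 4588 of the other symbols were listed at 0 in every library. The genes were taken by symbol, and the set was chosen by earlier readouts of these same libraries, in which Thbs1 had the largest increase in the complex environment, so the CE values of Thbs1 are a description and carry no test. Each group was 1 sequencing library of polyA RNA pooled from several wild-type male CD1 mice, an outbred strain, 4 months old by the labels, after 4 weeks in their housing. The LD library (8 mice) came from animals kept alone with a locked disk that could not turn. The CE library (complex environment, 8 mice) came from animals that also had a locked disk but lived in company, in cages with tunnels that were moved every day, so company and tunnels cannot be told apart in CE. The RUN library (8 mice) came from animals kept alone with a running disk. L-RUN and H-RUN were made from the same runners, as pools of the 4 mice with the shortest and the 4 mice with the longest running distance.

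Values were regularized log (rlog) values on the log2 scale, which the authors obtained by normalizing the 5 libraries together and shrinking each gene towards its mean, more strongly where it has few reads. With 1 library per group there was no replicate, no test between groups and no p-value, and the sequencing depth is unknown. Error was judged from the only repeat measurement in the design, the RUN pool against the average of the L-RUN and H-RUN pools that held RNA of the same animals. The SD of a difference between 2 libraries derived from it, called the technical SD here, was 0.0365 over all expressed genes and between 0.0222 and 0.0471 at the expression levels of the 8 genes. It covers the noise of making and sequencing a library, not the variation between mice. Dissection and RNA extraction were done for each mouse before pooling, so their error is not covered either. A difference of at least 0.3, the cut-off of the study's methods and 8.23 technical SDs, was called past the cut-off. Granule cell markers were abundant, with rlog values in LD of 12.01 for Prox1, 13.04 for Calb1 and 12.37 for Dsp, so the defining cells of the labelled tissue were present. In a bulk tissue, fewer cells of a type and less RNA per cell cannot be told apart.

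Thrombospondins are large multimeric glycoproteins of the extracellular matrix. Astrocytes release them in the developing brain, where they promote the formation of excitatory synapses through the calcium channel subunit encoded by Cacna2d1. Thbs1 and Thbs2 encode proteins that assemble as trimers, and Thbs3 and Thbs4 proteins that assemble as pentamers. Sparcl1 encodes hevin, an astrocyte protein that links presynaptic neurexins to postsynaptic neuroligins, and Sparc encodes its relative SPARC, a collagen-binding matrix protein known to oppose hevin at synapses. Gpc4 and Gpc6 encode glypicans, heparan sulfate proteoglycans anchored to the cell surface and shed by astrocytes, which recruit AMPA-type glutamate receptors to young synapses.

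The genes lie apart in the genome. In GRCm38 (mm10), the build of the files, Thbs1 spans chr2:118111876-118127133 and Thbs3 chr3:89215180-89226837, both on the plus strand. Thbs2 spans chr17:14665500-14694235, Thbs4 chr13:92751590-92794818, Sparc chr11:55394500-55423183, Sparcl1 chr5:104079111-104113733 and Gpc4 chrX:52053021-52165252, all on the minus strand. Gpc6, on the plus strand at chr14:116925315-117976544, is the longest of them. Each is annotated as protein coding. Thbs3 shares 318 bases of exon, 6.59% of its exon sequence, with Mtx1 on the other strand, and whether strand was used in counting is not given in the sources used here. Mtx1 had rlog values of 9.51 in LD, 9.57 in CE, 9.60 in L-RUN, 9.54 in H-RUN and 9.60 in RUN. Its CE value was above that of LD and below those of RUN and L-RUN, and the part of the shared bases in the Thbs3 values was not tested. Thbs1 shares 208 bases of exon, 3.43% of its own, with the lincRNA Gm29233 on the other strand. Gm29233 is not among the gene symbols of the data, so it has no values here. The part of these shared bases in the Thbs1 values was not tested.

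The 250 bases before the RefSeq start site (GRCm38.p6) are shown for Thbs3, Thbs4 and Sparc, the 3 genes besides Thbs1 with the largest differences between CE and LD, to set the regions side by side. Of the 8 genes, 5 had an entry in the promoter table. Each sequence reads towards the gene, and capitals mark matches, on either strand, to the TATA box (letters TATAAA), the GC box (letters GGGCGG), the CAAT-type box (letters CCAAT), the E-box (letters CACGTG), the site of TEAD factors (letters GGAATG) or the site of AP-1 factors (letters TGANTCA). The Thbs3 window is chr3:89214930-89215179, the Thbs4 window chr13:92794819-92795068 and the Sparc window chr11:55420081-55420330, the last inside the span that the GENCODE annotation gives the gene.
Thbs3: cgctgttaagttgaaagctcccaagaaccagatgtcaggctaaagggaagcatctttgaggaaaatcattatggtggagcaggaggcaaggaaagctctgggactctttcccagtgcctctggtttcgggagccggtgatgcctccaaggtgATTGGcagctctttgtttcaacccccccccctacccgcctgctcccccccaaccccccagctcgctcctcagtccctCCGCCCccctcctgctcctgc
Thbs4: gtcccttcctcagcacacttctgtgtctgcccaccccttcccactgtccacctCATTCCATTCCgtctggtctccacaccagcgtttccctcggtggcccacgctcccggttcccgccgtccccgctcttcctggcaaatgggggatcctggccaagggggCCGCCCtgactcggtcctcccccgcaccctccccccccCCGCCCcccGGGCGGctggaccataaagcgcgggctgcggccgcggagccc
Sparc: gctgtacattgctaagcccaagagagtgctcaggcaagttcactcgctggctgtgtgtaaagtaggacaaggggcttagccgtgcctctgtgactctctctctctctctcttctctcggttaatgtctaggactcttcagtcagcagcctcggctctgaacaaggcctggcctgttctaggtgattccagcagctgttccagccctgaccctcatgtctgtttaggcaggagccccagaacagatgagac
The Thbs3 window, 58.8% G and C, held 1 CAAT-type box whose first base lay at -98 from the start site and 1 GC box at -21, both on the reverse strand. In the Thbs4 window, 70.8% G and C, there were 3 GC boxes, at -89, -51 and -42, and 2 overlapping TEAD sites at -197 and -192. The Sparc window, 54% G and C, held none of the 6 motifs. Among all 32851 promoters of the table, 32.7% held a GC box, 33.8% a CAAT-type box, 12.6% a TEAD site, 12.4% a TATA box, 6.02% an E-box and 6.75% an AP-1 site, and the median G and C content was 52.4%. No motif of the 6 was in all 3 windows. A match is a description of the letters and not a bound site.

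Thbs1, which encodes the thrombospondin best known from platelets and as an inhibitor of blood vessel growth, had rlog values of 6.24 in LD, 6.92 in CE, 6.24 in L-RUN, 6.32 in H-RUN and 6.26 in RUN. CE stood alone, and the other 4 libraries lay within 0.087 of each other. The difference between CE and LD was 0.69, a 1.61-fold higher level and 18.7 technical SDs, and it ranked 1 of 13550 expressed genes by size. Above the next library, H-RUN, CE stood by 0.60, or 16.3 technical SDs, which also ranked 1 among the expressed genes for the distance of CE above every other library. Against RUN, CE was higher by 0.67. The runners showed little of this: the difference from LD was 0.004 in L-RUN, 0.087 in H-RUN (2.36 technical SDs) and 0.02 in RUN. Thbs1 was one of the weaker signals among expressed genes, since only 9.83% of them had a lower mean.

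Thbs2, the trimeric partner of Thbs1 in sequence and assembly, did not share its pattern. It had rlog values of 7.32 in LD, 7.27 in CE, 7.41 in L-RUN, 7.24 in H-RUN and 7.29 in RUN. The highest library was L-RUN, 2.15 technical SDs above LD, and the other 4 did not differ from their neighbours in order by 2 technical SDs. The difference between CE and LD was -0.04, or 0.97-fold. Its widest contrast was between the groups of runners, where L-RUN was 0.17 above H-RUN, 3.91 technical SDs and above the same difference of 97.3% of expressed genes.

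Thbs3, a pentameric thrombospondin of bone and heart as well as brain, had the highest rlog values of the 4 thrombospondin genes. They were 10.55 in LD, 10.74 in CE, 10.64 in L-RUN, 10.53 in H-RUN and 10.61 in RUN. CE was the highest library, 0.094 (2.60 technical SDs) above L-RUN. The difference between CE and LD was 0.18, 1.14-fold and 5.06 technical SDs, larger than that of 97.4% of expressed genes but short of the cut-off. L-RUN was 0.11 above H-RUN, 3.08 technical SDs.

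Thbs4, the pentameric thrombospondin linked to astrocytes of the subventricular zone, ran the other way. Its rlog values were 6.27 in LD, 6.11 in CE, 6.19 in L-RUN, 6.23 in H-RUN and 6.22 in RUN. LD was the highest library and CE the lowest. The difference between CE and LD was -0.16, a 0.894-fold level and 4.42 technical SDs, and 4.13% of expressed genes had a lower value. Among the other libraries, neighbours in the order LD, H-RUN, RUN and L-RUN lay within 1.05 technical SDs of each other, and CE lay 2.22 below L-RUN. Thbs1 and Thbs4 had nearly the same rlog value in LD, 6.24 and 6.27, and stood 0.69 higher and 0.16 lower in CE.

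**Figure D1:**
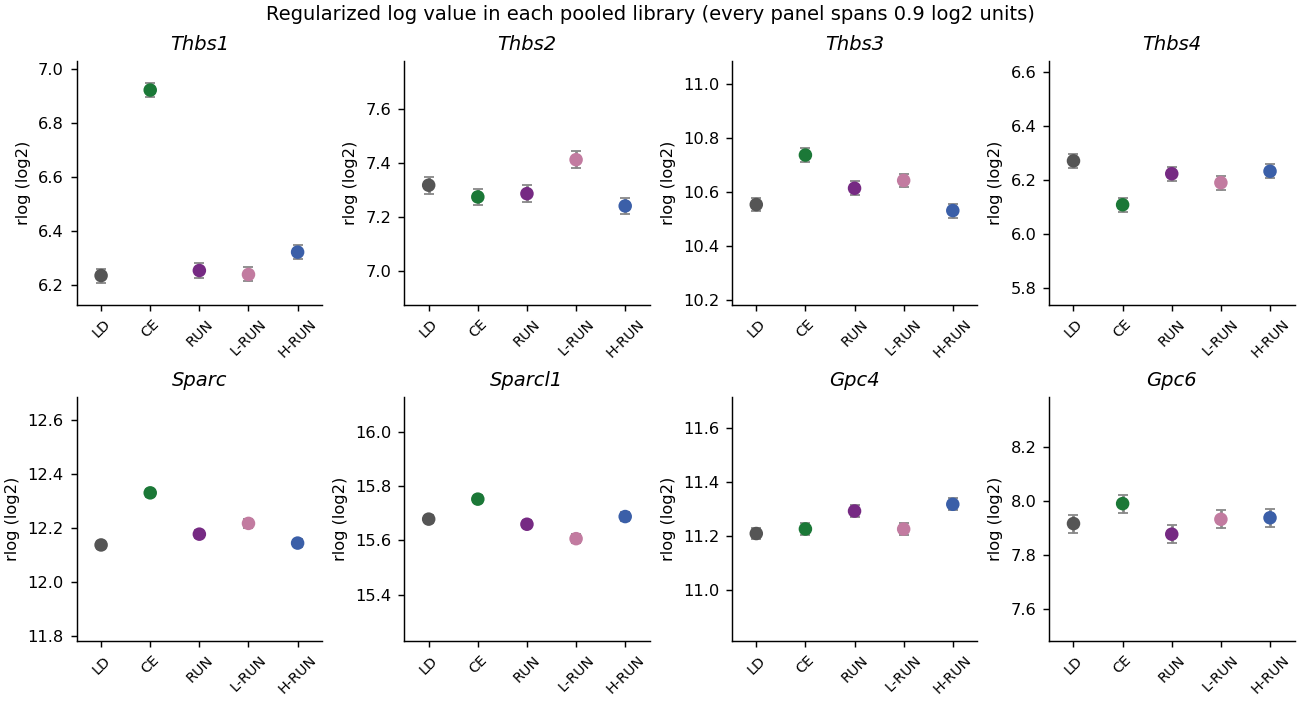
Regularized log value (rlog, log2) of each of the 8 genes in the LD, CE, RUN, L-RUN and H-RUN libraries, with 1 point for each pooled library and bars of 1 technical SD of a single library. Every panel covers the same span of 0.9. Thbs1 stands apart in CE at 6.92, against 6.24 to 6.32 elsewhere, Sparc and Thbs3 are highest in CE by smaller steps, and Thbs4 is lowest in CE.

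Sparc had rlog values of 12.14 in LD, 12.33 in CE, 12.22 in L-RUN, 12.14 in H-RUN and 12.18 in RUN. CE was highest, 0.11 or 5.09 technical SDs above L-RUN, and each other neighbouring pair in the order differed by less than 2 technical SDs. The difference between CE and LD was 0.19 (1.14-fold, 8.68 technical SDs), larger than that of 97.8% of expressed genes and below the cut-off. Against RUN, CE was higher by 0.15, or 6.88 technical SDs. L-RUN stood 0.08 above LD (3.59 technical SDs), and H-RUN was within 0.007 of LD.

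Sparcl1 was among the most abundant messages of the tissue, with a mean rlog value above that of 99.9% of expressed genes. Its values were 15.68 in LD, 15.75 in CE, 15.61 in L-RUN, 15.69 in H-RUN and 15.66 in RUN. CE was highest, by 2.90 technical SDs over H-RUN, and L-RUN lowest, by 2.40 below RUN. The difference between CE and LD was 0.07 (1.05-fold), a smaller step than that of Sparc, and L-RUN was 0.07 below LD. These small differences depended on scaling: after quantile normalization, the CE value was 0.04 above LD, H-RUN was 0.06 below LD and L-RUN was level with H-RUN. Sparc and Sparcl1, whose proteins oppose each other at synapses, were therefore both highest in CE, by unequal amounts, and differed in L-RUN, where Sparc was above LD and Sparcl1 below it.

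Gpc4 had rlog values of 11.21 in LD, 11.23 in CE, 11.23 in L-RUN, 11.32 in H-RUN and 11.29 in RUN. It was the only one of the 8 genes with H-RUN as the highest library. The difference from LD was 0.11 in H-RUN (1.08-fold, 3.51 technical SDs) and 0.08 in RUN (2.70 technical SDs), but 0.02 in both L-RUN and CE. H-RUN and RUN differed by 0.025, less than 1 technical SD, and RUN stood 2.15 technical SDs above CE. Gpc6 had rlog values of 7.92 in LD, 7.99 in CE, 7.93 in L-RUN, 7.94 in H-RUN and 7.88 in RUN. No neighbouring libraries differed by 2 technical SDs for Gpc6, and the difference between CE and LD was 0.07, or 1.57 technical SDs.

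Per length of the longest annotated transcript, as the mean rlog value minus log2 of kilobases, the order of the levels was Sparcl1 at 14.2, Sparc at 11.0, Gpc4 at 9.85, Thbs3 at 8.60, Gpc6 at 5.88, Thbs2 at 4.75, Thbs4 at 4.53 and Thbs1 at 3.85. Thbs1, with the largest difference of the set, had the lowest level per length. The 2 genes with the highest levels, Sparcl1 and Sparc, differed by 0.07 and 0.19 between CE and LD.

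Past the cut-off of 0.3 stood 1 of the 8 genes between CE and LD, Thbs1, where 0.598% of all expressed genes did, 45 of them higher and 36 lower. In none of the 8 genes did RUN, L-RUN or H-RUN differ from LD by the cut-off, where 1.31%, 3.13% and 0.827% of expressed genes did. Between CE and RUN it was again Thbs1 alone (background 0.834%), and between L-RUN and H-RUN none (background 1.54%). Since the set was chosen with the CE values known, nothing is read from the 1 gene in CE. Outside Thbs1, the largest difference from LD in size was 0.19 in CE, 0.09 in L-RUN, 0.11 in H-RUN and 0.08 in RUN. The median difference between CE and LD over the 8 genes was 0.07, with 6 above 0 and 2 below, against a median of -0.002 and 49.2% above 0 over all expressed genes. The CE split was known when the set was chosen and is a description. The split was the same between L-RUN and LD, with 6 above 0 and 2 below, where 49.3% of expressed genes were above 0. Of the 6, Thbs1, Gpc4 and Gpc6 were only 0.11, 0.53 and 0.34 technical SDs above LD. It was 5 and 3 between H-RUN and LD (48% of expressed genes above 0) and 4 and 4 between RUN and LD (49.3%).

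**Figure D2:**
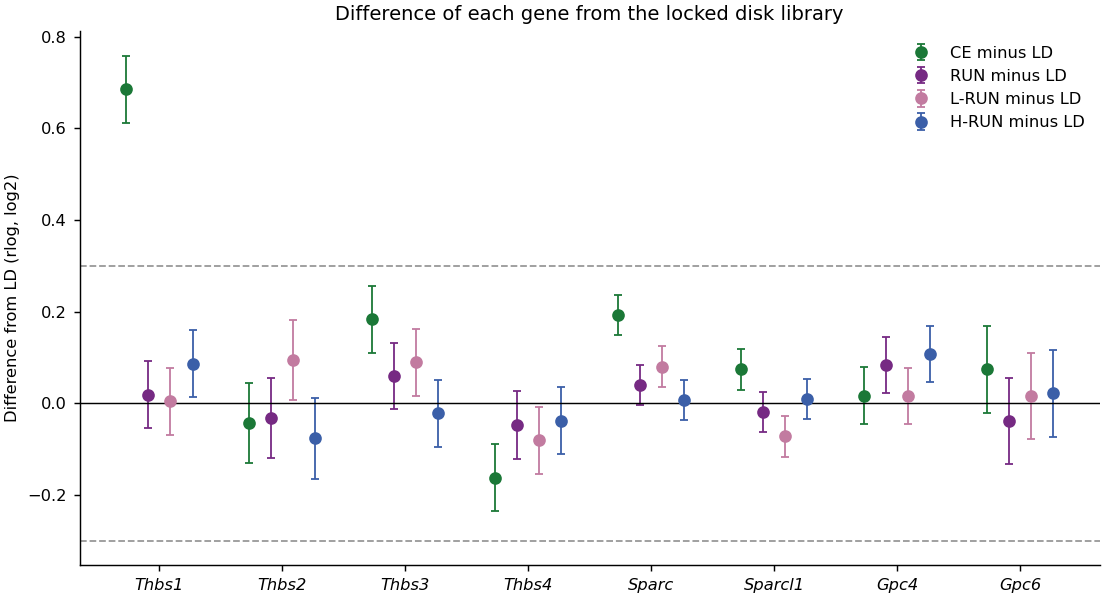
Difference of each gene's rlog value (log2) from LD in CE and in the 3 runner libraries, with bars of 2 technical SDs on either side and dashed lines at the cut-off of 0.3. Only Thbs1 in CE, at 0.69, is beyond a dashed line, and Sparc at 0.19, Thbs3 at 0.18 and Thbs4 at -0.16 are the next farthest from 0.

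CE was the highest of the 5 libraries for 5 of the genes, Thbs1, Thbs3, Sparc, Sparcl1 and Gpc6, and for 22.9% of expressed genes. Of the remaining genes, Thbs2 was highest in L-RUN, Thbs4 in LD and Gpc4 in H-RUN. This count was known when the set was made and is a description. For 7 of the 8 genes the RUN value lay between those of L-RUN and H-RUN, as it did for 58.3% of expressed genes, and Gpc6 was the exception, with RUN 0.058 below the average of the other pools. The distance between RUN and that average had a median size of 0.023 over the 8 genes and of 0.0213 over all expressed genes.

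**Figure D3:**
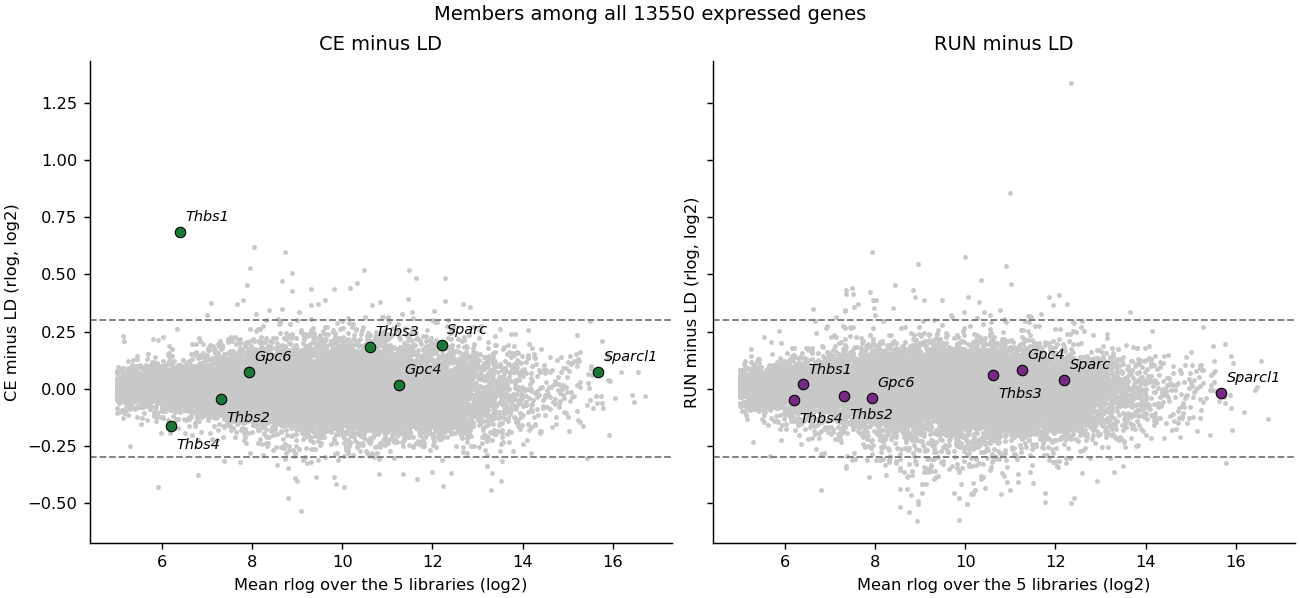
Difference in rlog value (log2) from LD in CE (left) and in RUN (right) against the mean rlog value over the 5 libraries, with the 13550 expressed genes in grey, the 8 genes as labelled points and dashed lines at the cut-off of 0.3. Thbs1 is the highest of all points in CE, at 0.69, although its mean is low, and lies at 0.02 in RUN, where all 8 genes sit inside the grey band.

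The 8 expressed genes whose 4 differences from LD were most like those of Thbs1, by Euclidean distance, were Atp6v0c, Ttr, Cpne7, Cpne2, Hrh3, Vgll3, Sulf2 and Gm12070. Their distances were between 0.116 and 0.380, and the median over expressed genes was 0.706. As they were picked for the smallest distances, that contrast was fixed in advance and is a description. Atp6v0c, which encodes a subunit of the proton pump of acidic organelles, was nearest, with rlog values of 8.58 in LD, 9.18 in CE, 8.65 in L-RUN, 8.65 in H-RUN and 8.63 in RUN. Its difference between CE and LD was 0.60. Ttr, the thyroid hormone carrier made in the choroid plexus, had 7.83 in LD, 8.45 in CE, 7.97 in L-RUN, 7.97 in H-RUN and 8.01 in RUN, with a difference of 0.62. The differences between CE and LD were 0.48 for Cpne7 and 0.46 for Cpne2, which encode calcium-dependent membrane-binding copines, 0.39 for the histamine receptor gene Hrh3, 0.34 for Vgll3 and 0.52 for Gm12070. Sulf2, which encodes an enzyme that removes sulfate groups from heparan sulfate outside the cell, differed by 0.31. When values were centred on the mean of the 5 libraries instead, 4 of these 8 genes stayed among the nearest.

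Genes of the surrounding pathways were taken as 5 lists of 61 genes, of which 56 were expressed. Between CE and LD, 1 of the 56 was higher past the cut-off and none was lower, where 0.598% of all expressed genes were past it, and their median difference was -0.01. RUN had none higher and 2 lower, where 1.31% of all expressed genes were past the cut-off in either direction, and L-RUN none higher and 3 lower, where 3.13% were. H-RUN had 1 higher and none lower (0.827%), CE was past the cut-off above RUN for 2 genes (0.834%), and L-RUN below H-RUN for 1 (1.54%). In all 6 comparisons, 51 of the 56 stayed within the cut-off. The counts were small in each comparison and are read only beside these shares of all expressed genes.

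Of the receptors and clearance proteins of thrombospondins, 9 of 10 were expressed, with Cd36, the scavenger receptor that binds Thbs1, below the limit. None of the 9 was past the cut-off in any comparison, and their median difference between CE and LD was -0.03. Cacna2d1, the synaptogenic receptor subunit, had the lowest difference of the list, -0.12, with rlog values of 13.35 in LD, 13.23 in CE, 13.30 in L-RUN, 13.39 in H-RUN and 13.33 in RUN. Cacna2d1 was named for having the lowest difference between CE and LD of the list, so its low place in CE is a description. Of the 9 expressed genes, 1 had a higher value in CE than in LD. Itga3, an integrin subunit, had the highest difference, 0.11.

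All 14 synaptic partners of hevin and of glypicans were expressed, and none was past the cut-off in any comparison. Nrxn2, a presynaptic neurexin, had the highest difference between CE and LD of the list, 0.21, with rlog values of 12.66 in LD, 12.87 in CE, 12.63 in L-RUN, 12.67 in H-RUN and 12.64 in RUN. Nrxn2 was named for this difference, so its place above the other libraries in CE is a description. The median difference between CE and LD over the 14 was -0.02, with 5 above 0. Lrrtm4, a postsynaptic protein of granule cells that binds heparan sulfate of glypicans, had the lowest difference, -0.18. Its rlog values were 11.27 in LD and 11.09 in CE.

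Among other members of the 3 gene families, 10 of 11 were expressed and Comp, the fifth thrombospondin gene, was below the limit. Smoc1, a matrix protein related to SPARC, had the highest difference between CE and LD, 0.29, just inside the cut-off, with rlog values of 8.52 in LD and 8.81 in CE. Smoc2 had the lowest, -0.10. Spock2, a secreted proteoglycan of the SPARC family, was the one gene past the cut-off, with rlog values of 13.19 in LD, 13.11 in CE, 12.66 in L-RUN, 12.90 in H-RUN and 12.78 in RUN. All runners lay below both LD and CE. It was 0.40 lower than LD in RUN and 0.53 lower in L-RUN, where H-RUN was 0.29 lower, and CE stood 0.33 above RUN.

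Of 10 other secreted factors by which glia act on synapses, 8 were expressed and Tnf and Gdnf were below the limit. Between CE and LD, the highest difference was that of Apoe, the lipid carrier of astrocytes, at 0.15, and the lowest that of Tgfb2 at -0.13. Bdnf, which encodes a growth factor made mainly by neurons in this tissue, had rlog values of 11.07 in LD, 11.08 in CE, 11.26 in L-RUN, 11.43 in H-RUN and 11.33 in RUN. Here the runners, and not CE, stood above LD. The difference from LD was 0.36 in H-RUN, past the cut-off, and 0.01 in CE.

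Of the 16 enzymes that build or edit the heparan sulfate chains of glypicans, 15 were expressed, with the heparanase gene Hpse below the limit. Sulf2 was the gene past the cut-off in CE, with rlog values of 10.95 in LD, 11.27 in CE, 10.95 in L-RUN, 10.99 in H-RUN and 10.93 in RUN. CE stood apart by 0.31 from LD, just past the cut-off, and the other 4 libraries were close together. Sulf2 had already been picked as one of the genes nearest to Thbs1, so its likeness to Thbs1 was fixed in advance and is a description. It was not among the nearest when values were centred on the mean of the libraries. Ndst1, which adds sulfate to the growing chain, had 10.82 in LD, 10.69 in CE, 10.27 in L-RUN, 10.67 in H-RUN and 10.50 in RUN. It was highest in LD and lowest in L-RUN, 0.55 lower than LD and 0.40 lower than H-RUN, with RUN 0.32 lower than LD. Its difference between CE and LD, -0.14, was the lowest of the list. Xylt1, which starts the chain, was 0.33 lower than LD in L-RUN. Over all expressed genes with a known length, differences from LD were lower for longer transcripts, with Spearman correlations of -0.51 in L-RUN and -0.49 in RUN. The part of this trend in the values of Ndst1, Xylt1 and Spock2 was not tested.

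**Figure D4:**
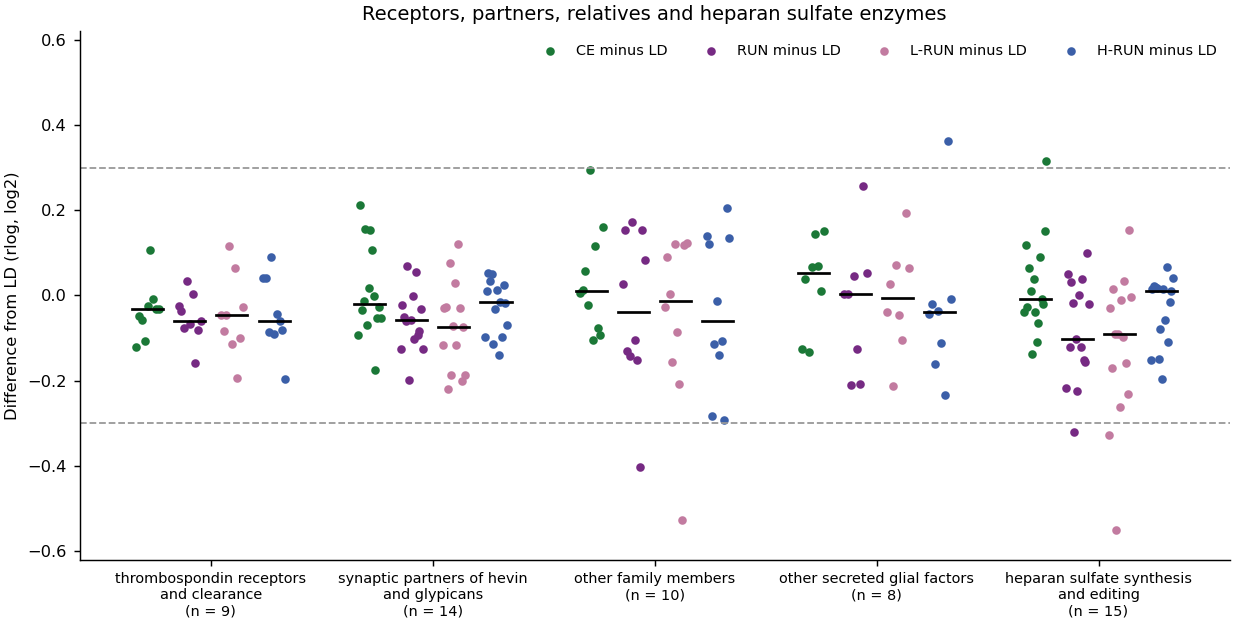
Differences in rlog value (log2) from LD for the expressed genes of the 5 pathway lists, with 1 point for each gene in each library other than LD, black bars at the list medians and dashed lines at the cut-off of 0.3. Most points lie inside the dashed lines, and the points outside are Sulf2 in CE at 0.31, Bdnf in H-RUN at 0.36, and Spock2, Ndst1 and Xylt1 on the lower side in runners.

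Since thrombospondins and SPARC are made by several cell types, marker lists were summed on the linear scale (2 to the power of the rlog value) beside them. All 11 astrocyte markers were expressed, with rlog values in LD of 13.3 for Gfap, 12.2 for Aqp4 and 9.91 for Aldh1l1. None was past the cut-off between CE and LD, and their summed level was 153241 in LD, 142075 in CE, 131673 in L-RUN, 146739 in H-RUN and 139364 in RUN. The most abundant of them was Slc1a2, the main glutamate transporter gene of astrocytes, with rlog values of 16.06 in LD and 15.86 in CE, and 4 of the 11 markers had a higher value in CE than in LD. The part of astrocytes in the values of the 8 genes was not tested. The 9 endothelial markers, led by Cldn5, Pecam1 and Cdh5, summed to 4221 in LD and 3989 in CE with none past the cut-off between these. The 9 mural cell markers, led by Pdgfrb, Rgs5 and Acta2, summed to 3417 and 3558, and the 7 microglial markers, led by Cx3cr1, P2ry12 and Tmem119, to 8590 and 7875, again with none past it.

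Platelets are known to hold thrombospondin. Of their markers, 2 of 6 were expressed, Itga2b and Gp1ba, and the sum of these was between 87.5 in CE and 92.5 in L-RUN. The defining markers Pf4 and Ppbp had rlog values of 2.67 and 1.31 in LD and of 2.69 and 1.31 in CE. The part of platelets in the values of Thbs1 was not tested. Among erythroid markers, 3 of 5 were in the files and none had a mean of at least 5. Hba-a1 and Hba-a2 were listed at 0 in every library, but they are near-identical copies whose shared reads may not have been counted, so their level is uncertain.

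Markers of the coverings of the brain did move between libraries. The 13 leptomeningeal markers, led by Dcn, Lum and Ogn, summed to 3346 in LD, 3753 in CE, 5009 in L-RUN, 2910 in H-RUN and 3886 in RUN. Between CE and LD, 3 of the 13 were past the cut-off, all higher, Dcn by 0.37, Col1a1 by 0.39 and Col1a2 by 0.45. Among all expressed genes, 0.598% were past it. The median difference of the 13 in CE was 0.07, with 10 above 0, while Ogn (-0.05), Tbx18 (-0.03) and Foxc1 (-0.006) were lower. Between L-RUN and LD, 8 were past the cut-off, all higher, where 3.13% of expressed genes were. In H-RUN, 2 were past it, both lower, Dcn by 0.52 and Ogn by 0.68, where 0.827% were. Thbs1 lay 0.004 above LD in L-RUN, where the leptomeningeal sum was highest, and 0.69 above LD in CE. With the trend with transcript length removed, Thbs1 was 0.07 above LD in L-RUN and 0.72 in CE. Of the 8 genes, 3 were higher in L-RUN than in H-RUN, as the leptomeningeal sum was: Thbs2 by 0.17, Thbs3 by 0.11 and Sparc by 0.07. The other 5, Thbs1, Thbs4, Sparcl1, Gpc4 and Gpc6, were lower in L-RUN, with differences between -0.006 and -0.09. Over all expressed genes, 48.6% were higher in L-RUN than in H-RUN. The part of that sum in these differences, and in those of Thbs1 and the other genes between CE and LD, was not tested. Of 9 choroid plexus markers, 2 were expressed, Ttr and Kl, with a sum of 662 in LD and 793 in CE and between 661 and 675 in the runners. Ttr was past the cut-off in CE and Kl differed by 0.03, while Folr1, a defining marker, had 2.42 in LD and 2.44 in CE. The sum placed CE alone above the rest, as Thbs1 did. Of its 2 markers, Ttr had already been picked for differences from LD like those of Thbs1, so this likeness is a description. The part of the sum in the Thbs1 values was not tested.

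Neurons of neighbouring hippocampal fields were also compared. The 5 markers of CA1 and CA3 pyramidal cells, led by Wfs1, Pou3f1 and Fibcd1, summed to 3249 in LD, 3638 in CE, 2564 in L-RUN, 3068 in H-RUN and 2851 in RUN. Fibcd1 was the marker past the cut-off in CE, 0.31 above LD, while Pou3f1 and Iyd differed from LD by -0.07 and -0.06 in CE. The 7 granule cell markers summed to 34332 in LD, 31350 in CE, 33310 in L-RUN, 33348 in H-RUN and 33124 in RUN, so that CE was lowest. The markers were not of one direction: 2 of the 7 were higher in CE than in LD, C1ql2 by 0.17 and Plk5 by 0.14. The largest decrease was that of the abundant Stxbp6, -0.29, and none was past the cut-off in CE. The part of either sum in the values of the 8 genes was not tested.

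**Figure D5:**
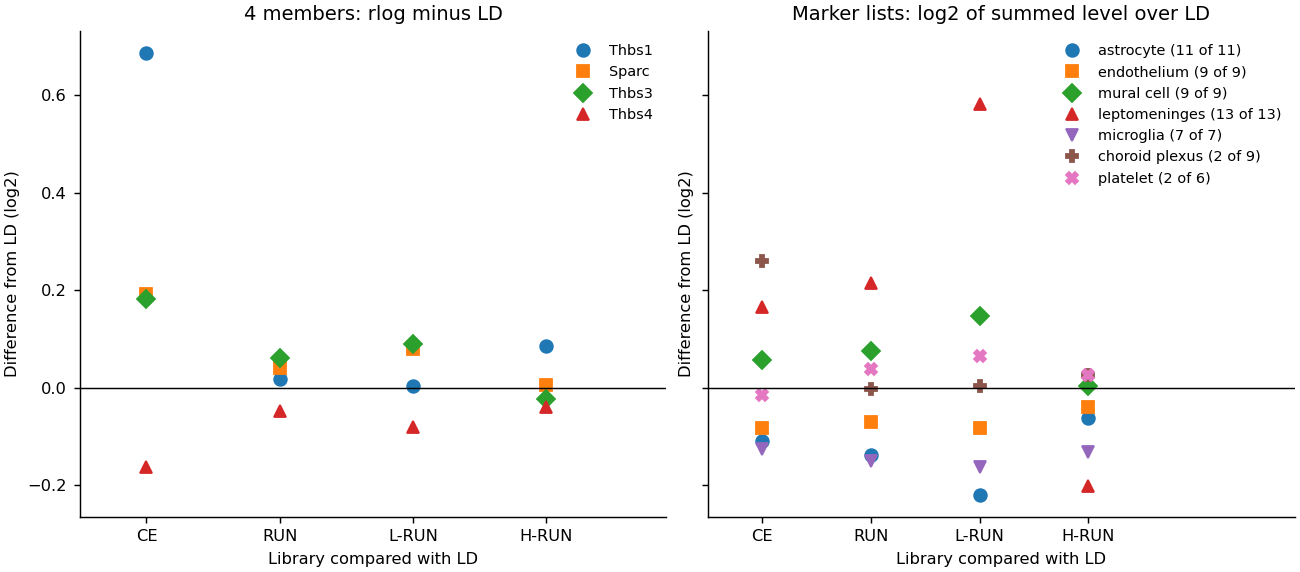
Left, difference in rlog value (log2) from LD for Thbs1, Sparc, Thbs3 and Thbs4 in CE and the runner libraries, and right, log2 of the summed level of 7 marker lists over LD in the same libraries, with the number of expressed markers in brackets. Thbs1 is at 0.69 in CE and near 0 in runners, while the leptomeningeal sum peaks in L-RUN at 0.58 and the choroid plexus sum, from 2 of 9 markers, is at 0.26 in CE.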

How the data were processed

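RNA of microdissected mouse DG was sequenced as 1 pooled library per group (TriZol and RNeasy extraction, TruSeq RNA preparation). The authors made the deposited log2 values with CASAVA 1.8.2, TopHat2 2.0.10 on mm10, HTSeq counts per RefSeq gene and DESeq2 1.10.1, which normalized all libraries together and gave regularized log values. Read counts were not analysed here, so depth and counting precision are unknown, and shrinkage could not be undone.

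Groups were read from the sample labels. Differences of rlog values were taken for 6 comparisons, with a minimum mean of 5 and a cut-off of 0.3. The technical SD came from RUN minus log2 of the linear mean of L-RUN and H-RUN, from median absolute deviations within deciles of mean rlog, taking the residual variance as 1.5 and that of a difference as 2 library variances. Named genes were the 8 genes, the 8 nearest to Thbs1, list genes past the cut-off or with the highest or lowest difference between CE and LD, and the first 3 markers per list. The result of 1 marker list is not reported here. The genes and lists were chosen with earlier results of these data known. Positions and lengths came from GENCODE, matched by symbol, with a length for 94.2% of expressed genes. Protein features, planned at first, were not analysed here. Scripts were tested on simulated data. Tools were matplotlib 3.10.9, statsmodels 0.14.6, scipy 1.17.1, pandas 2.3.3, numpy 2.4.6 and Python 3.11.15.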

Additional observations from a re-analysis of the deposited data

How the results depend on the processing

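The number of the 8 genes past the cut-off was the same in all 6 comparisons under cut-offs of 0.2 and 0.4, quantile normalization, median centring, removal of the trend with transcript length and, for the comparisons with LD, the mean of the other 4 libraries as baseline. The difference of Thbs1 between CE and LD ranged from 0.66 with that baseline to 0.72 without the length trend. The trend ran over all expressed genes with a length. The Spearman correlation of the difference from LD with log2 length was -0.33 in CE, -0.51 in L-RUN, -0.37 in H-RUN and -0.49 in RUN. It was 0.20 between CE and RUN and -0.34 between L-RUN and H-RUN. Differences of single genes moved by less than 1 technical SD in 48 of 48 cases with centring, 42 of 48 without the length trend, 41 of 48 with quantile normalization and 15 of 32 with the other baseline, where CE itself is part of the baseline of the runners. Thbs2 in RUN changed from -0.03 to 0.02 without the length trend. Thbs1 changed in the same way from 0.004 to 0.07 in L-RUN, from 0.02 to 0.07 in RUN and from 0.09 to 0.12 in H-RUN. The number of expressed genes past the cut-off, 81 in CE, 424 in L-RUN, 112 in H-RUN and 178 in RUN against LD, 113 between CE and RUN and 208 between L-RUN and H-RUN, became 511, 1346, 448, 631, 472 and 668 at 0.2, and 25, 184, 38, 52, 34 and 81 at 0.4. With the other baseline it was 143 in L-RUN, 40 in H-RUN and 3 in RUN. No paired analysis was possible because each group had 1 library, and leaving out a replicate was not possible for the same reason.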
